A study of Arabidopsis thaliana with 24 samples.

Results

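The 10 loci described here report on or set the iron status of Arabidopsis thaliana. They are 3 genes of the IRON MAN (IMA) peptides (IMA1, IMA2 and IMA3), 4 genes of the Ib subgroup of basic helix-loop-helix (bHLH) transcription factors (bHLH38, bHLH39, bHLH100 and bHLH101) and 3 ferritin genes (FER1, FER3 and FER4). They were chosen by locus identifier (IMA1 AT1G47400, IMA2 AT1G47395, IMA3 AT2G30766, bHLH38 AT3G56970, bHLH39 AT3G56980, bHLH100 AT2G41240, bHLH101 AT5G04150, FER1 AT5G01600, FER3 AT3G56090 and FER4 AT2G40300) and make up 10 of the 37184 loci in the count files. The study compared plants that lack DXO1, an enzyme of the DXO family that acts on RNA 5′ ends, with plants of the same mutant that carry DXO1 transgenes. The RNA came from 21-day-old soil-grown plants in long days, and 3′ ends were sequenced from oligo(dT)-primed cDNA. There were 24 libraries, 4 for each of 6 genotypes, with 1270033 to 3490594 counts each and a median of 2112938.5.

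Of the genotypes, 4 carry a 35S promoter transgene, a promoter active in most plant tissues, in the dxo1-2 mutant background, and the labels name 1 line for each construct. The truncated substituted line carries 35S::DXO1(ΔN194/E394A/D396A), a construct for an N-truncated protein with the catalytic substitutions. The truncated active line carries 35S::DXO1(ΔN194), the full-length substituted line 35S::DXO1(E394A/D396A), and the full-length active line a construct for the wild-type protein. These names describe the constructs, and neither protein level nor activity is given by these data. The remaining groups are the dxo1-2 mutant itself and wild-type Col-0. A construct is therefore represented by 1 line, and a feature of that line cannot be told apart from a feature of the construct. The labels do not say whether the 4 libraries of a genotype came from separately grown plants, so p-values measure the spread between these libraries, which may be technical.

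DXO1 itself averaged 5.14 ± 1.71 CPM, the unit used here for counts scaled to the library's total after TMM adjustment of that total, in the truncated substituted line, 4.45 ± 1.77 in the truncated active line, 18.4 ± 2.43 in the full-length line with substitutions, 12.1 ± 1.24 in the full-length active line, 3.36 ± 0.645 in dxo1-2 and 15.6 ± 2.97 in Col-0 (SD, n = 4 each). The libraries of both truncated lines overlapped with those of dxo1-2 for this gene. The 3′ sequence of the transgenes is not given in the sources used here, so these 3′ counts do not measure how much transgene RNA was made. In the truncated lines the transcript level of the transgene is therefore not known from these data.

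Plants raise iron uptake and recycling when iron is short and store it in ferritin when it is in excess. IMA peptides are small peptides that accumulate under iron deficiency and hold back BRUTUS-type ubiquitin ligases, which would otherwise remove the bHLH factors that switch on the deficiency genes. The Ib bHLH factors pair with FIT in roots to activate the iron reductase FRO2 and the transporter IRT1, while their transcripts and those of the IMA genes also rise in iron-deficient leaves. Ferritins are iron stores of plastids, and FER4 is also found in mitochondria. Their transcripts rise with iron excess.

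The IMA genes are shown first by the last 57 bases of their coding sequences, the stop codon included, because this end encodes the stretch that defines the family. The sequences were read from the RefSeq annotation of TAIR10.1, plus strand, and capitals mark the bases that are the same in all 3.
IMA1, chr1:17385914-17385970: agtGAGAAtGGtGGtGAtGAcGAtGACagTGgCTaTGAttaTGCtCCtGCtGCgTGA
IMA2, chr1:17383213-17383269: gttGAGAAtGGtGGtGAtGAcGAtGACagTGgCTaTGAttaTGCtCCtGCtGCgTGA
IMA3, chr2:13108155-13108211: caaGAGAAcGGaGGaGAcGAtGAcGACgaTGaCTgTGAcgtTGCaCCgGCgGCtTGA
Of the 57 bases, 37 were shared by all 3 genes and 20 differed, 12 of them at the third codon position. IMA1 and IMA2, which are neighbours on chromosome 1, had the same base at 55 positions. In the last 500 bases of their transcripts, where 3′ reads fall, their longest identical run was 23 bases.

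IMA transcripts were higher in dxo1-2 than in Col-0. IMA3 had 52.1, 86.6, 109 and 186 CPM in the 4 dxo1-2 libraries, against 5.20, 9.83, 8.18 and 5.97 CPM in the Col-0 libraries. Every dxo1-2 library was above every Col-0 library, and the lowest and highest dxo1-2 libraries stood far apart. On the log2 scale the fitted difference in IMA3 was 3.90 (SE 0.45, adjusted p = 3.4e-07 by edgeR's quasi-likelihood test), or 14.95-fold.

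IMA1 and IMA2 were higher in dxo1-2 as well, from levels in Col-0 that rest on few counts. IMA1 had 7.01, 4.66, 16.1 and 32.1 CPM in dxo1-2, against 1.42, 0, 0.681 and 1.79 CPM in Col-0. IMA2 had 4.68, 9.99, 21.2 and 29.6 CPM in dxo1-2, against 0.473, 0, 2.73 and 1.79 CPM in Col-0. Neither gene's groups overlapped, but all 4 Col-0 libraries together held 7 counts of IMA1 and 8 counts of IMA2. The log2 fold changes were 3.67 (SE 0.84, edgeR adjusted p = 0.0019) for IMA1 and 3.61 (SE 0.85, edgeR adjusted p = 0.0024) for IMA2. Without dxo1-2 replicate 4 the IMA1 value was 3.08, and without Col-0 replicate 3 the IMA2 value was 4.20, both still past the threshold.

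In this comparison 4 of the 6 tested members were called at an edgeR adjusted p under 0.05, all of them higher in dxo1-2, where 22.6% of all 13592 tested genes were called in either direction and 14.7% as higher. IMA1 and IMA2 passed the filter on low counts through the groups in which they were high. The members were also chosen with earlier results of these data known. This count, and each count of called members below, is therefore only a description of the members that could be tested. The 3 IMA genes and FER3 were the called members. They were also called in each of the 8 fits that left out 1 library of either group. The groups did not overlap for 26.1% of all tested genes.

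The IMA genes were lower in the full-length active line than in dxo1-2. IMA3 had 4.47, 4.34, 1.71 and 9.66 CPM in the full-length active line, below each dxo1-2 library and across the range of Col-0. Against dxo1-2 the fitted log2 fold changes were -4.43 (SE 0.44) for IMA3, -3.57 (SE 0.73) for IMA1 and -3.26 (SE 0.72) for IMA2, each with an edgeR adjusted p of 0.0011 or less. With a trend on gene length removed, the values for IMA1 and IMA2 were -2.84 and -2.55, and both were still called. Without dxo1-2 replicate 4 the IMA1 value was -2.99. In this comparison 4 of 6 tested members were called, all with less RNA in the line, against 30.6% of all tested genes called in either direction and 18.5% as lower. For IMA3 the groups did not overlap, as for 34% of all tested genes. The other 2 members had positive values that were not called, 0.48 for FER1 and 0.63 for FER4.

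The full-length substituted line also had low IMA levels, although its construct carries both catalytic substitutions. IMA3 had 9.39, 9.53, 7.93 and 18.3 CPM in that line, and all 4 libraries were below the lowest dxo1-2 library. IMA2 had 0.853, 1.27, 2.92 and 9.16 CPM, and its highest library lay within the dxo1-2 range. IMA1 had 5.97, 3.18, 2.09 and 6.41 CPM, so that 2 of its libraries were above the lowest dxo1-2 library.

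Against dxo1-2, in the line with both substitutions IMA3 fell by 3.30 on the log2 scale (SE 0.43, edgeR adjusted p = 1.8e-06). For IMA2 the fitted value was -2.23 (SE 0.73, adjusted p = 0.025 by edgeR), which lost its call in 5 of the 8 fits that left out 1 library, with values from -1.82 to -2.13 there. Those 5 fits were the ones without dxo1-2 replicate 3 or 4 and without replicate 1, 2 or 3 of the line. Without replicate 4 of the line the value was -3.0. IMA1 had -1.80 (SE 0.68, edgeR adjusted p = 0.053) and was not called. DESeq2 gave IMA1 an adjusted p of 0.027. In all, 4 of 6 tested members were called, all lower in the line, against 25.5% of all tested genes in either direction and 15.1% as lower. Groups without overlap, as seen for IMA3, FER1 and FER3, made up 21.3% of all tested genes.

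IMA levels in the truncated lines lay within or above the range of dxo1-2. IMA3 had 137, 146, 256 and 332 CPM in the truncated substituted line. It had 143, 72.1, 147 and 198 CPM in the truncated active line. Both sets overlapped with the dxo1-2 libraries, which reached 186 CPM, and neither overlapped with Col-0 or with the full-length lines. Of all tested genes, 30.4% had no overlap between the truncated substituted line and Col-0, and 27.7% had none between the truncated active line and Col-0. IMA1 averaged 59.7 ± 44.5 CPM in the truncated substituted line, 26.6 ± 12.6 in the truncated active line and 15.0 ± 12.5 in dxo1-2. For IMA2 the averages were 38.4 ± 25.4, 22.8 ± 15.2 and 16.4 ± 11.2 CPM in the same order of genotypes (SD, n = 4 each).

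None of the 6 tested members was called between the truncated active line and dxo1-2 by edgeR, none had an unadjusted p under 0.05, and DESeq2 called 0, with 3.03% of all tested genes called. The log2 fold change of IMA3 was 0.38, with a 95% interval of -0.30 to 1.06. Between the truncated substituted line and dxo1-2 edgeR called 0 members as well, with 0.795% of all tested genes called, but 4 of the 6 had an unadjusted p under 0.05. The largest of the IMA values was that of IMA1, at 2.05 (SE 0.52, 95% interval 1.04 to 3.07, edgeR adjusted p = 0.057), and DESeq2 called this gene with an adjusted p of 0.034. Leaving out dxo1-2 replicate 4, or replicate 1 or 2 of the line, also brought IMA1 past the threshold, with values up to 2.64.

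**Figure D1:**
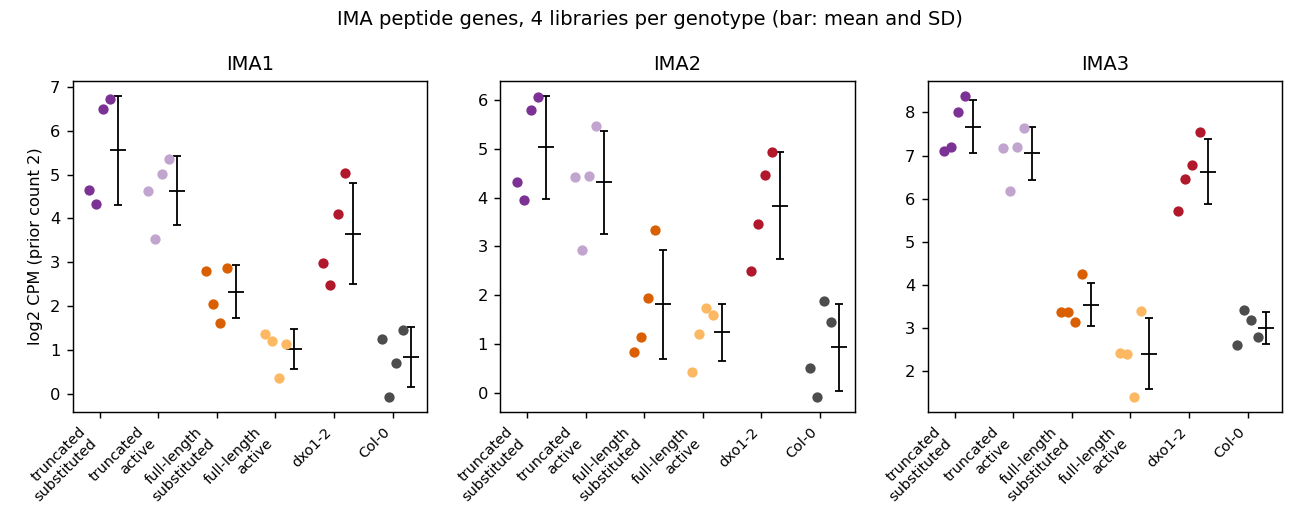
Level of IMA1, IMA2 and IMA3 as log2 CPM with a prior count of 2 (y axis) in the 24 libraries, by genotype (x axis). Points are libraries, and bars are the mean and SD of 4 libraries. The truncated lines and dxo1-2 lie well above the full-length lines and Col-0 for IMA3, and no IMA3 library of one set overlaps with the other.

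Compared with each other, the truncated and full-length lines differed in all 3 IMA genes whether or not the construct carried the substitutions. IMA3 was higher by 4.81 (SE 0.44) in the truncated active line than in the full-length active line, and by 4.32 (SE 0.43) in the truncated substituted line than in the full-length substituted line, on the log2 scale. The IMA1 values were 4.46 and 3.85, and the IMA2 values 3.77 and 3.49, each with an edgeR adjusted p of 3.0e-04 or less. The second IMA2 value was 4.27 when full-length substituted replicate 4 was left out. Of the 6 tested members 5 were called between the active lines, 3 higher and 2 lower in the truncated line, against 17.4% of all tested genes called higher and 12.5% called lower (29.9% in all). Between the substituted lines 4 were called, all higher in the truncated line, against 30.2% of all tested genes called and 17.6% called higher. The groups did not overlap for 29.8% of all tested genes in the active pair and 24.9% in the substituted pair.

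The IMA genes were not called between substituted and active lines. IMA3 in the full-length substituted line was 1.13 above the full-length active line on the log2 scale (95% interval 0.12 to 2.14, edgeR adjusted p = 0.19). IMA1 had 1.77 in that comparison (95% interval -0.01 to 3.55, edgeR adjusted p = 0.25), although its 4 substituted libraries were all above the 4 active ones, as they were for 12.7% of all tested genes in one direction or the other. Among the truncated lines the IMA3 difference was 0.64 (95% interval -0.03 to 1.31, edgeR adjusted p = 0.32). No IMA gene had an interaction of substitution and truncation past the threshold, and the IMA3 term was -0.50 (95% interval -1.69 to 0.70).

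Against Col-0 the IMA3 difference was 4.92 (SE 0.45) in the truncated substituted line, 4.28 (SE 0.45) in the truncated active line, 0.60 (SE 0.53) in the full-length substituted line and -0.53 (SE 0.54) in the full-length active line, as log2 fold changes. IMA1 and IMA2 were called higher in both truncated lines too, at 5.72 and 4.88 in the substituted one and 4.56 and 4.12 in the active one. Without Col-0 replicate 3 the IMA2 values were 5.48 and 4.72. No IMA gene was called in either full-length line, where the intervals of IMA1 and IMA2 were wide. In the full-length substituted line IMA1 had 1.87 (95% interval -0.16 to 3.90), with 2.09 to 6.41 CPM against 0 to 1.79 CPM in Col-0. IMA2 had 1.38 there (95% interval -0.73 to 3.50). In the full-length active line the values were 0.10 for IMA1 and 0.35 for IMA2. The full-length active line had 0 of 6 tested members called against Col-0 by edgeR, 1 with an unadjusted p under 0.05 (FER1) and 1 called by DESeq2 (FER1, adjusted p = 0.039), against 1.03% of all tested genes.

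**Figure D2:**
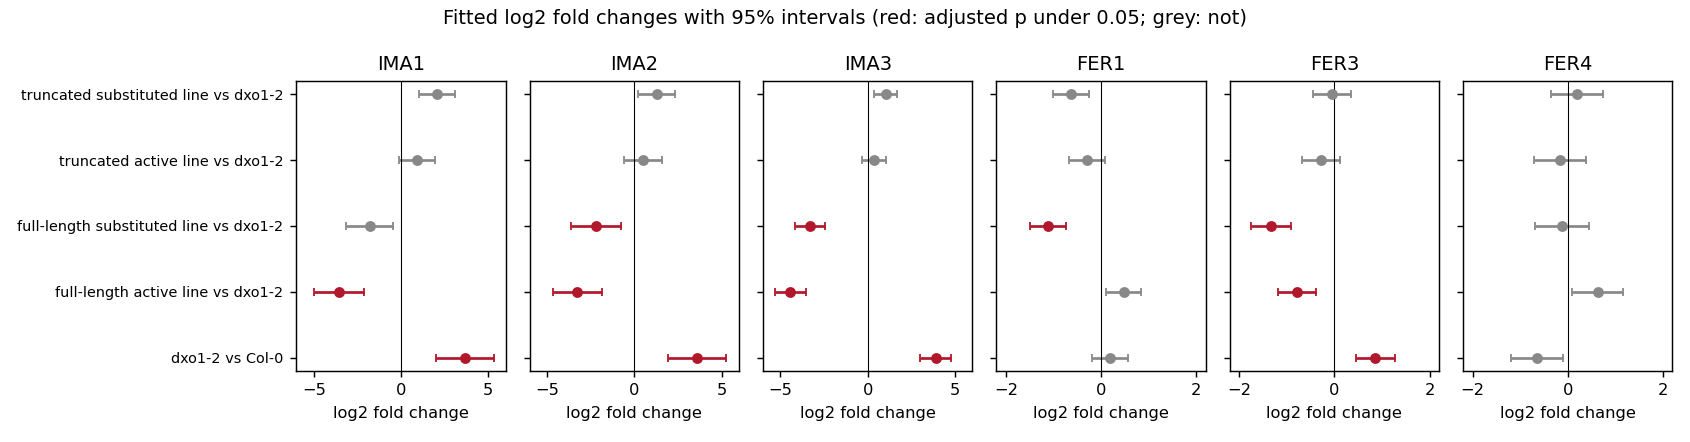
Fitted log2 fold changes (x axis) of the 6 tested members in 5 comparisons (y axis). Points are estimates, lines are 95% intervals, and red marks an edgeR adjusted p under 0.05. The IMA panels change sign between the full-length lines against dxo1-2 and dxo1-2 against Col-0, and the truncated lines show no red point.

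IMA3 has a neighbour that limits how its counts can be read. The last exon of IMA3 (TAIR10.1, chr2:13109873-13110480, plus strand, 608 bases) shares 330 bases with CYP71A13, a camalexin biosynthesis gene on the opposite strand, and whether strand was used in counting is not given in the sources used here. CYP71A13 had 1.76, 1.49, 0.494 and 0.624 CPM in the truncated substituted line and 1.50, 1.98, 4.77 and 27.1 CPM in the truncated active line. It had 25.7, 12.7, 4.14 and 2.54 CPM in dxo1-2, against 0.946, 1.51, 1.36 and 2.99 CPM in Col-0. The dxo1-2 library with the most CYP71A13 had the least IMA3 of that group, while the truncated active library with the most CYP71A13 had the most IMA3 of its group. The part of CYP71A13 reads in the IMA3 counts was not tested. IMA1 and IMA2 overlap with no annotated gene, while FER1, FER4, bHLH38 and bHLH101 each overlap with 1. FER4 overlaps with AT2G40290 on the same strand, which had 6.76 to 33.1 CPM over the 24 libraries. bHLH101 overlaps with GLU1 on the opposite strand, which had 42.7 to 362 CPM. The neighbours of FER1 and bHLH38 had at most 3 counts in any library. The part of such reads in the counts of these members was not tested.

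The 4 Ib bHLH genes had few counts in every genotype and did not pass the filter on low counts, so their raw counts are described. Summed over the 4 genes, there were 53 counts in the truncated substituted line, 31 in the truncated active line, 9 in the full-length line with substitutions, 4 in the full-length active line, 41 in dxo1-2 and 1 in Col-0. Of the 41 counts in dxo1-2, 27 came from replicate 3, while the other libraries held 6, 1 and 7. The truncated active line held 6 to 10 counts in each library. As for the IMA genes, both truncated lines and dxo1-2 held the most in this sum. bHLH101 did not follow it, with its highest mean in the full-length substituted line (1.35 CPM) and 2 counts in the truncated active line. The sums are not scaled to the group totals, which ran from 6592905 to 11069710 counts.

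bHLH38 had 3, 1, 9 and 1 counts in dxo1-2 and 0 in each Col-0 library. Set against a floor of 3 counts over the Col-0 group, the pooled bHLH38 level was 5.24 times the floor in the truncated substituted line. It was 3.10 times the floor in the truncated active line and 4.27 times in dxo1-2. These ratios leave out the counting error of the higher genotype, so they are not lower bounds. These levels and floors use library totals without the TMM adjustment. Replicate 3 held 9 of the 14 bHLH38 counts in dxo1-2, and without it the ratio to the floor was 2.12. With 1 library left out, the lowest bHLH38 ratio was 3.51 in the truncated substituted line and 2.45 in the truncated active line. bHLH39 had 2, 0, 4 and 4 counts in dxo1-2 and 0 in each Col-0 library, with a pooled level in dxo1-2 of 3.05 times the same floor. All 9 counts of bHLH100 in dxo1-2 lay in replicate 3, so its ratio of 2.74 to the floor rests on 1 library. bHLH101 had 8 counts in dxo1-2 and 7 in the full-length substituted line, 5 of them in replicate 4 of that line, against 1 in Col-0.

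bHLH38 and bHLH39 had 0 counts in the full-length substituted line. A count of 0 in its 4 libraries allows a level of up to 0.455 CPM, and covers counting error only. In the full-length active line bHLH38 had 1 count and bHLH39 had 0, which allows up to 0.271 CPM for bHLH39. With no filter on low counts, edgeR called bHLH38 between dxo1-2 and Col-0 (adjusted p = 0.015), while bHLH39, bHLH100 and bHLH101 were not called, with adjusted p-values of 0.051, 0.10 and 0.30. The same fit called bHLH38, bHLH39 and bHLH100 lower in the full-length active line than in dxo1-2, with adjusted p-values of 0.010, 0.011 and 0.028. The bHLH100 call rests on 1 library, since all 9 of its dxo1-2 counts lay in replicate 3.

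**Figure D3:**
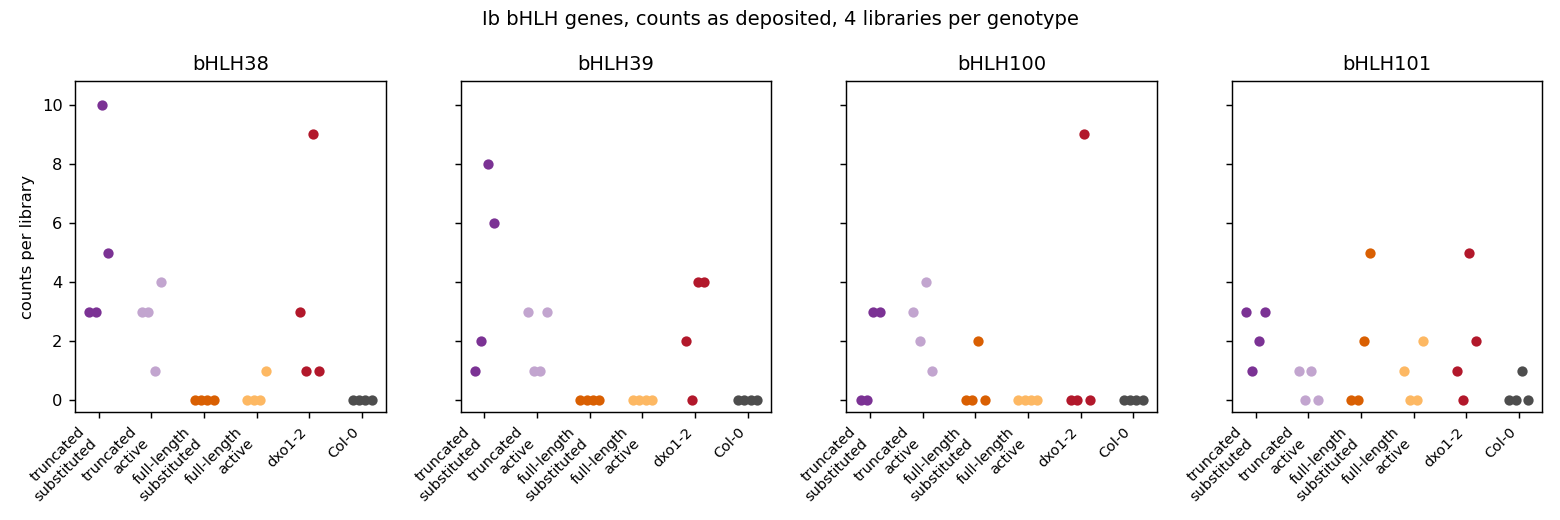
Counts as deposited (y axis) of the 4 Ib bHLH genes in each library, by genotype (x axis). Points are libraries, 4 per genotype. bHLH38 and bHLH39 are at 0 in every Col-0 library, and no library has more than 10 counts of any of the 4 genes.

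The ferritins did not move as a group in dxo1-2. FER3 was higher, with 66.8, 91.3, 81.4 and 74.4 CPM in dxo1-2, against 41.6, 48.4, 31.3 and 50.8 CPM in Col-0. These groups did not overlap, and FER3 was higher by 0.86 on the log2 scale (SE 0.21, adjusted p = 0.0033 by edgeR). FER1 had 162, 234, 233 and 175 CPM in dxo1-2, against 191, 199.6, 139.7 and 178 CPM in Col-0. The groups overlapped, and the log2 fold change was 0.18 (95% interval -0.19 to 0.56, edgeR adjusted p = 0.54). FER4 had 23.0, 41.3, 31.7 and 36.4 CPM in dxo1-2, against 41.1, 49.2, 42.9 and 70.5 CPM in Col-0. Only the highest dxo1-2 library reached the lowest Col-0 library, and the difference of -0.64 on the log2 scale was not called (SE 0.28, adjusted p = 0.10 by edgeR). FER4 was called lower when only the 8 libraries compared were fitted (adjusted p = 0.024) and when a trend on gene length was removed (adjusted p = 0.0045).

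FER3 was also higher in dxo1-2 and the truncated lines by mean level, with smaller differences than the IMA genes. It averaged 76.4 ± 13.1 CPM in the truncated substituted line, 64.7 ± 18.1 in the truncated active line, 31.1 ± 10.0 in the full-length line with substitutions, 45.3 ± 2.54 in the full-length active line, 78.5 ± 10.4 in dxo1-2 and 43.0 ± 8.70 in Col-0 (SD, n = 4 each). Against dxo1-2, FER3 fell by 0.79 in the full-length active line (SE 0.20, edgeR adjusted p = 0.0044) and by 1.33 in the full-length substituted line (SE 0.22, edgeR adjusted p = 4.1e-05), on the log2 scale. In neither truncated line was it called against dxo1-2. Against its full-length counterpart FER3 was higher by 1.29 in the truncated substituted line (SE 0.22, edgeR adjusted p = 4.4e-05). The value of 0.50 in the truncated active line (SE 0.20, edgeR adjusted p = 0.064) was not called, although the groups did not overlap, and DESeq2 gave it an adjusted p of 0.045. Against Col-0 it was higher in the truncated substituted line by 0.82 (SE 0.21, edgeR adjusted p = 0.0038). The truncated active value of 0.58 (edgeR adjusted p = 0.038) lost its call without Col-0 replicate 1 or 3, without truncated active replicate 4, when low counts were not filtered out, and when only the libraries compared were fitted.

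FER1, the main ferritin gene of leaves, was lower in the full-length substituted line than in the full-length active line. It had 93.0, 128, 77.2 and 74.2 CPM in the full-length substituted line, against 317, 299.7, 306 and 199 CPM in the full-length active line. The lowest active library was well above the highest substituted one, and the difference was -1.59 on the log2 scale (SE 0.20, adjusted p = 1.1e-05 by edgeR). FER1 was the 1 member of 6 called in this comparison, against 6.28% of all tested genes and 2.49% called lower. FER3 and FER4 had -0.55 and -0.75, not called (edgeR adjusted p = 0.13 and 0.11), and 4 of the 6 had an unadjusted p under 0.05. FER1 was also the 1 member called between the full-length substituted line and Col-0, where it fell by 0.93 (SE 0.20, edgeR adjusted p = 0.0042), against 5.36% of all tested genes and 2.18% called lower. There FER3 and FER4 had -0.47 and -0.75, not called (edgeR adjusted p = 0.27 and 0.14), and 3 of the 6 had an unadjusted p under 0.05. Against dxo1-2, FER1 fell by 1.11 (SE 0.20, edgeR adjusted p = 1.0e-04). In the full-length active line FER1 had 0.48 against dxo1-2, with overlapping groups (SE 0.19, edgeR adjusted p = 0.054). That value passed the threshold with all libraries kept under median-of-ratios size factors (adjusted p = 0.046), DESeq2 (0.032), a length trend (0.0038) and only the libraries compared (0.037).

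In the truncated lines FER1 had 154, 119, 123 and 121 CPM in the truncated substituted line, against 132, 159, 173 and 190.4 CPM in the truncated active line. The groups overlapped, the difference was -0.34 on the log2 scale (SE 0.19, adjusted p = 0.34 by edgeR), and edgeR and DESeq2 called 0 of the 6 members there, with 1 unadjusted p under 0.05 (IMA1) and 2.11% of all tested genes called. The difference between the 2 substituted-minus-active values, truncated minus full-length, was 1.25 (SE 0.27, edgeR adjusted p = 0.014). Against dxo1-2, FER1 had -0.64 in the truncated substituted line (SE 0.19, edgeR adjusted p = 0.17) with no overlap, as 4.92% of all tested genes had. The substitution interaction in FER1 was the 1 called among the 6 members, against 1.44% of all tested genes and 0.839% with a positive term. The terms of FER3 and FER4 were 0.79 and 1.11, not called (edgeR adjusted p = 0.23 and 0.19), and 3 of the 6 members had an unadjusted p under 0.05. Among the active lines FER1 was lower by 0.78 in the truncated line than in the full-length line (SE 0.19, edgeR adjusted p = 0.0023).

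FER4 was called in 2 comparisons. It averaged 37.6 ± 6.31 CPM in the truncated substituted line, 29.5 ± 12 in the truncated active line, 30.3 ± 14.1 in the full-length line with substitutions, 50.5 ± 9.11 in the full-length active line, 33.1 ± 7.76 in dxo1-2 and 50.9 ± 13.5 in Col-0 (SD, n = 4 each). Both calls were lower levels in the truncated active line, by 0.80 relative to Col-0 (edgeR adjusted p = 0.029) and by 0.80 relative to the full-length active line (edgeR adjusted p = 0.027). The first was lost without Col-0 replicate 4 or without replicate 1, 2 or 3 of the truncated line. The second was lost without replicate 2 or 3 of the full-length line or without replicate 1, 2 or 3 of the truncated line. In the full-length active line against dxo1-2 the value was 0.63 (SE 0.27, edgeR adjusted p = 0.079), and it was called with a length trend removed (0.95, adjusted p = 0.0012) and with only the libraries compared (0.64, adjusted p = 0.017). Against Col-0, 5 of the 6 members were called in the truncated active line, 4 higher and 1 lower, where 29.2% of all tested genes were called, 16.8% as higher and 12.4% as lower. In the truncated substituted line 4 were called, all higher, where 28.3% of all tested genes were called and 17.6% as higher.

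**Figure D4:**
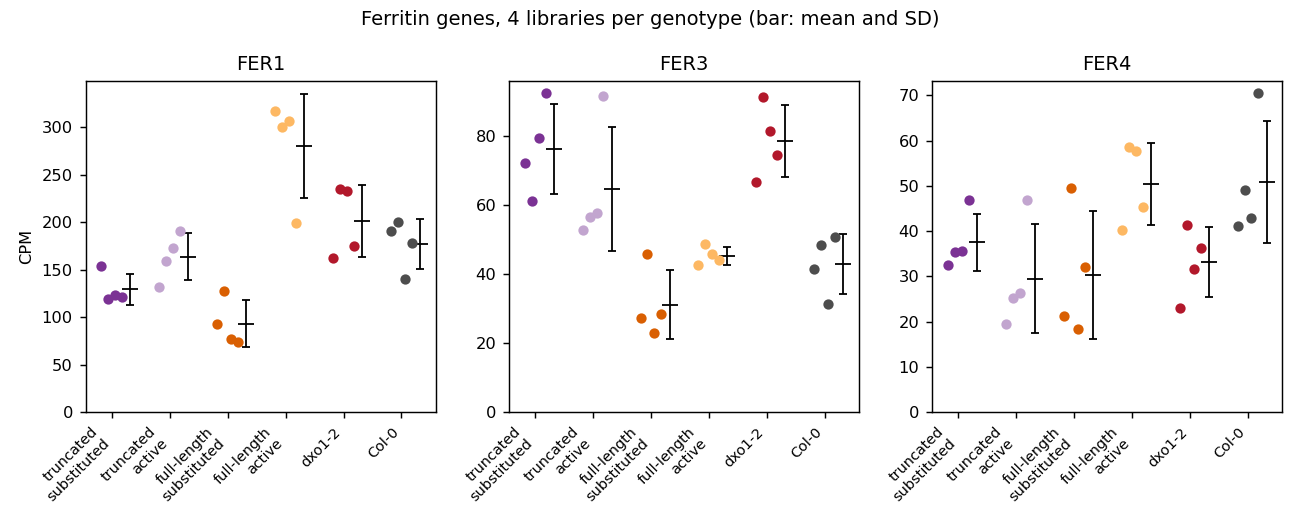
Level of FER1, FER3 and FER4 in CPM (y axis) in the 24 libraries, by genotype (x axis). Points are libraries, and bars are the mean and SD of 4 libraries. FER1 is lowest in the full-length substituted line and highest in the full-length active line, while FER3 is highest in dxo1-2 and the truncated substituted line.

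Ordered by mean level, neighbouring genotypes overlapped for most members. For FER1, FER4, IMA2, bHLH38, bHLH100 and bHLH101 every neighbouring pair in the order had overlapping libraries. For IMA3 the gap lay between dxo1-2 and the full-length substituted line, for FER3 between the truncated active and the full-length active line, and for IMA1 between the full-length substituted and the full-length active line. For bHLH39 it lay between the truncated active line and the 3 genotypes at 0.

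Across the 24 libraries the levels of the 3 IMA genes ran together, with Pearson's r of log2 CPM of 0.93 for IMA1 and IMA2, 0.93 for IMA1 and IMA3 and 0.92 for IMA2 and IMA3. These values include the differences between genotypes. After each genotype's mean was removed they were 0.68, 0.67 and 0.64, so libraries of 1 genotype that were high in one IMA gene tended to be high in the others. FER3 and FER4 had r = 0.21 over all libraries and 0.86 within genotypes. The points share library preparation and depth, and no p is given. The genes most like IMA3 outside the 10 members were AT3G28900, AT1G52342 and the ethylene response factor gene ERF15, each with r = 0.97. Those most like FER3 were AT1G20310, AT5G53830 and DEG14, with r = 0.94, 0.93 and 0.93. For FER1 they were AT4G16790, ARCK1 and KCR2, with r = 0.81, 0.80 and 0.77. IMA1 was most like AT1G78020, AT1G32928 and AT3G06145 (r = 0.93 each), IMA2 most like AFR, AT5G06280 and SADHU1-1 (r = 0.94 each), and FER4 most like MEE3, AT2G42130 and TRN2 (r = 0.79, 0.77 and 0.77).

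Of 2 motifs searched upstream of the members, 1 was found in some of them and the other in none. The G-box, spelled CACGTG and identical on both strands, is a site that bHLH and bZIP factors can bind. It was found in the 250 bases before the annotated start of 4 of the 10 members, and in 6.49% of such windows over 27443 genes. The phosphate starvation motif P1BS, searched as GNATATNC on both strands, was found in 0 of the 10 windows and in 5.46% of all. The 4 windows with a G-box are shown as the 120 bases before the start, read 5′ to 3′ on the gene's strand, which is the minus strand in TAIR10.1 (RefSeq) for all 4, with the G-box in capitals.
FER3, chr3:20816036-20816155: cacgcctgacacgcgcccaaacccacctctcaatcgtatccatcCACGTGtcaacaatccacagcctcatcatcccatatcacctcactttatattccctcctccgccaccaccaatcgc
FER4, chr2:16833295-16833414: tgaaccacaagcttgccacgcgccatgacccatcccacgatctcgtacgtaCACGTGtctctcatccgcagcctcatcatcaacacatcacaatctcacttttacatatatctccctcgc
bHLH38, chr3:21085246-21085365: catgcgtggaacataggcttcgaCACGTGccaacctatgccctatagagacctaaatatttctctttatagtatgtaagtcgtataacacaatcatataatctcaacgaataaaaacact
bHLH100, chr2:17199455-17199574: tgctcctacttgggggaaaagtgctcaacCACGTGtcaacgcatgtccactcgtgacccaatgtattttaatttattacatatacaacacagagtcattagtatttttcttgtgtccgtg
The G-box begins 76 bases before the start in FER3, 69 in FER4, 97 in bHLH38 and 91 in bHLH100. FER3 and FER4 both hold it, and their fitted values in dxo1-2 against Col-0 were 0.86 for FER3 and -0.64, not called, for FER4. Any part of the G-box in these values was not tested. The 3 IMA windows held neither motif. A match in these letters is a description and not a bound site.

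Other genes of iron handling were read from a list of 59, of which 34 passed the filter on low counts. In dxo1-2 relative to Col-0, 4 of the 34 were called higher and 3 lower, or 20.6% in all, near the 22.6% of all tested genes called there, with a median log2 fold change of 0.12 against 0.02 over all tested genes. The 4 higher genes were the nicotianamine synthase gene NAS4 (1.91, SE 0.31, edgeR adjusted p = 4.2e-05), the phloem iron transporter gene OPT3 (1.31, SE 0.17), the vacuolar iron exporter gene NRAMP4 (1.12, SE 0.17) and the chloroplast iron reductase gene FRO7 (0.97, SE 0.26). OPT3 had 163.6, 151.9, 189 and 159.8 CPM in dxo1-2, against 65.7, 64.3, 72.2 and 65.7 CPM in Col-0, with no overlap. The named lower genes were FRO6, an iron reductase gene of the cell surface in shoots (-0.65, SE 0.23, edgeR adjusted p = 0.038), and the beta-glucosidase gene BGLU42 (-1.08, SE 0.35, edgeR adjusted p = 0.026).

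OPT3, NAS4, NRAMP4 and FRO7 were all lower in both full-length lines than in dxo1-2. OPT3 fell by 1.30 in the full-length active line and by 1.43 in the full-length substituted line on the log2 scale, and NRAMP4 by 0.81 and 1.72. Relative to dxo1-2, 4 genes of the list were called higher in the full-length active line and 7 lower. With the substitutions the full-length line had 2 called higher and 7 lower. The shares of the list called, 32.4% and 26.5%, were near those of all tested genes, 30.6% and 25.5%. FRO7 was lower in the full-length substituted line, averaging 8.33 ± 3.04 CPM there and 20.5 ± 3.45 CPM in the full-length active line (log2 fold change -1.26, edgeR adjusted p = 0.0092). Against Col-0, FRO7 was the 1 gene of the 34 called in the full-length substituted line, where it was lower.

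Against dxo1-2, 1 gene of the list was called in the truncated substituted line and 2 in the truncated active line, all higher, or 2.94% and 5.88% of the list where 0.795% and 3.03% of all tested genes were called. NAS1, another nicotianamine synthase gene, was called in both and was not called between dxo1-2 and Col-0. NAS1 averaged 16.9 ± 6.39 CPM in the truncated substituted line, 21.3 ± 1.36 in the truncated active line and 6.44 ± 2.68 in dxo1-2 (SD, n = 4 each). The log2 fold changes relative to dxo1-2 were 1.49 (edgeR adjusted p = 0.040) and 1.81 (edgeR adjusted p = 0.0029). The other gene was FRO7, which averaged 71.9 ± 11.4 CPM in the truncated active line and 36.9 ± 4.41 CPM in dxo1-2, with no overlap (0.96 on the log2 scale, SE 0.24, edgeR adjusted p = 0.023). In the truncated substituted line FRO7 averaged 39.1 ± 6.60 CPM and was lower than in the truncated active line (-0.88, SE 0.24, edgeR adjusted p = 0.046). Relative to Col-0, 10 genes of the list were called higher and 3 lower in the truncated substituted line, and 11 higher and 3 lower in the truncated active line. These are 38.2% and 41.2% of the list, where 28.3% and 29.2% of all tested genes were called. PYE, a bHLH repressor gene of the deficiency response, was among the higher ones, at 1.82 and 1.78.

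**Figure D5:**
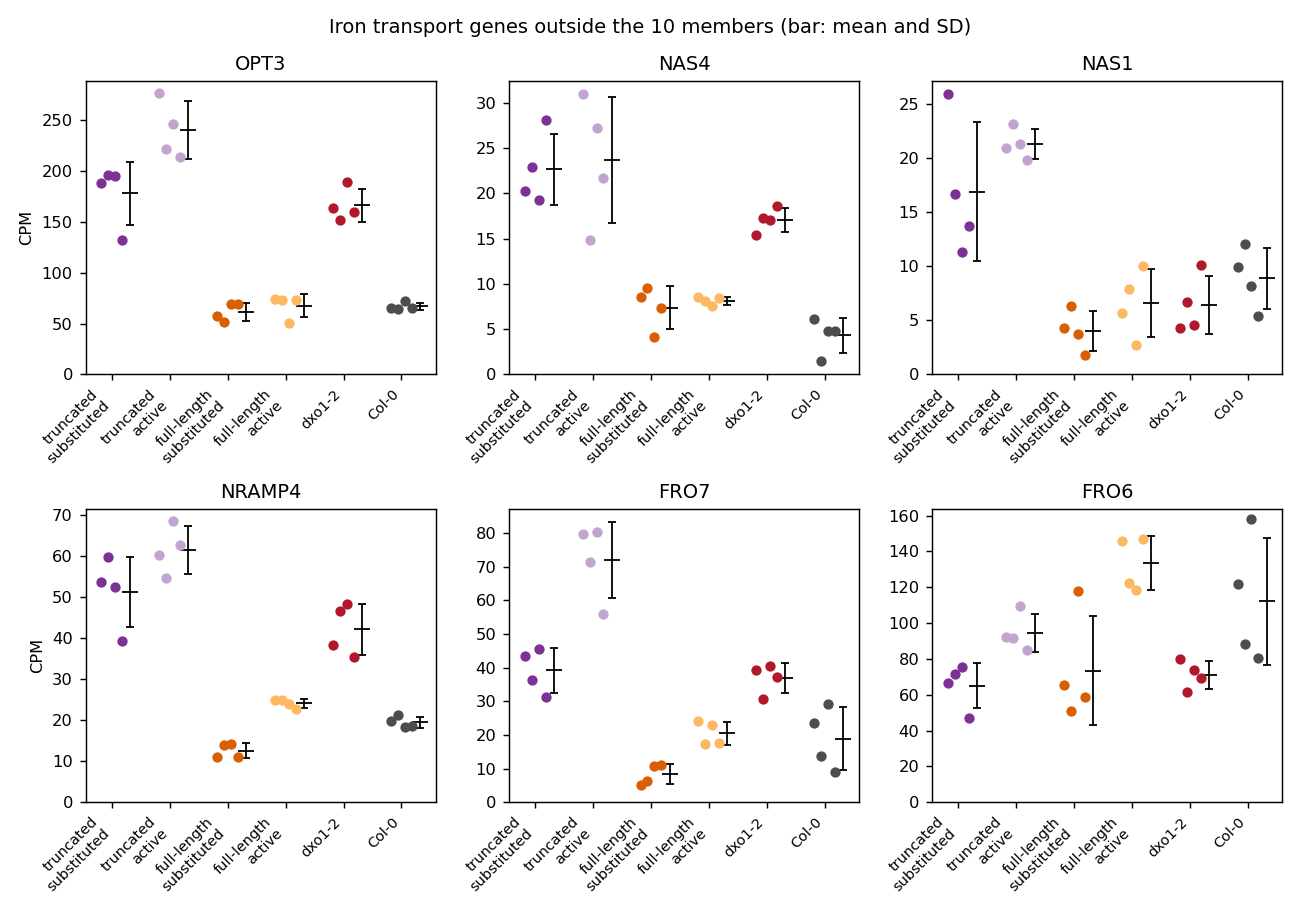
Level in CPM (y axis) of 6 other iron genes in the 24 libraries, by genotype (x axis). Points are libraries, and bars are the mean and SD of 4 libraries. OPT3, NAS4 and NRAMP4 are high in dxo1-2 and both truncated lines, NAS1 in the truncated lines, and FRO6 is highest in the full-length active line.

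Root iron uptake genes had few counts in these libraries. IRT1 had 2 counts, FRO2 45, FIT 140 and MYB72 0 counts in all 24 libraries together. Of 12 root markers, 7 or 8 were at 0 in every library of a given genotype, and the summed level of the list was 5.72 to 16.6 CPM in any library. The 8 leaf markers summed to between 30979 and 59270 CPM.

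Summed levels of marker lists for other cell types and states differed between genotypes. The 6 phloem markers summed to 131 to 232 CPM in the truncated substituted line, 146 to 302 in the truncated active line, 360.0 to 638 in the full-length line with substitutions, 463 to 543 in the full-length active line, 139 to 235 in dxo1-2 and 448 to 557 in Col-0, with none of the 6 at 0. Much of that difference lay in PP2-A1, at 11.7 CPM in dxo1-2 and 223 CPM in Col-0. By mean, SUC2 (91.4 and 157 CPM), AHA3 (24.5 and 55.1) and APL (9.89 and 13.6) were also lower in dxo1-2 than in Col-0. SEOR1 had 6.09 and 6.39 CPM and NaKR1 30.9 and 32.4 CPM in the same groups. In dxo1-2 relative to Col-0, 1 of 6 tested phloem markers, 4 of 8 leaf markers and 2 of 8 clock genes were called lower, and 2 of 4 senescence markers higher. These are 16.7%, 50%, 25% and 50% of the tested markers, where 22.6% of all tested genes were called in either direction. The phloem and clock shares are near that of all tested genes. The 6 senescence markers summed to 118 to 212 CPM in dxo1-2 and 58.6 to 72.6 in Col-0. Most of that difference lay in WRKY53 (means of 110 and 50.5 CPM) and SAG13 (37.5 and 2.02), while ORE1 had near-equal means. The 9 clock genes summed to 179 to 233 CPM in dxo1-2 and 250.3 to 328 in Col-0. Their means did not all move the same way. TOC1 (55.3 and 101.8 CPM) and ELF4 (22.8 and 50.7) were lower in dxo1-2 than in Col-0. CCA1 (2.91 and 0.733 CPM) and LHY (4.299 and 1.98) were higher, so the clock sum does not describe each gene. The leaf markers summed to 33830 to 40516 CPM in dxo1-2 and 47261 to 59270 in Col-0. The part of these differences in the values of the IMA genes, FER3 and OPT3 was not tested. In bulk RNA, fewer cells of a type and less RNA per cell cannot be told apart.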

How the data were processed

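The authors deposited 1 table of counts per library, raw counts per locus identifier, made from 3′ RNA-seq of oligo(dT)-primed, barcoded cDNA, per the labels' protocols. STAR 2.7.8a, DESeq2 and the TAIR10 build are named in the submitters' processing notes, with no roles given. The counting tool, the annotation, the use of strand and any collapsing of PCR duplicates are not given in the sources used here, so counts may not be independent molecules, and intervals and floors cover counting error only. Library totals ran from 1270033 to 3490594 counts. No pair of libraries within a genotype held identical values.

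The members and gene lists were chosen with earlier results of these data known. Gene positions and sequences came from the RefSeq annotation of TAIR10.1, in which 36899 of the 37184 loci were found. Counts were fitted with edgeR 4.0.16 (R 4.3.3) in 1 quasi-likelihood model over all 24 libraries with 1 mean per genotype, TMM normalization and edgeR's default filter on low counts by genotype. This left 13592 genes, 6 of them members. P-values were adjusted by Benjamini-Hochberg over all tested genes, and called means an adjusted p under 0.05. Fold changes come from this fit, with normal 95% intervals from their SE. CPM per library used the TMM-adjusted total, while floors and levels pooled over a genotype used totals as deposited, and log2 CPM for plots and correlations used a prior count of 2. The script was tested on simulated data.

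Named genes are all 10 members, then per comparison up to 5 higher and 5 lower iron genes whose higher genotype averaged 20 counts or more, and for each member with a mean of at least 20 counts the 3 genes most correlated with it. CYP71A13, AT2G40290, GLU1, the root uptake genes and the phloem, senescence and clock markers given by name were named outside this rule, after their values were seen. Where a gene had 0 counts in a genotype, a floor of 3 counts over that genotype's 4 libraries was used. Alternatives were another normalization, DESeq2 1.42.0, no filter, a gene-length trend, only the libraries compared, a replicate block, and leaving out each library.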

Additional observations from a re-analysis of the deposited data

Results flagged for a closer look

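Within the genotypes, 5 libraries stood apart from the other 3 of their genotype by Dixon's criterion, among 49 sets of 4 libraries that were tested; chance alone marks about 1 in 20. FER1 was lowest in replicate 4 of the full-length active line, at 199 CPM against 299.7 to 317 CPM in the other libraries, and without it the FER1 value against dxo1-2 was 0.61 on the log2 scale (edgeR adjusted p = 0.020). With all libraries kept it was 0.48, called under 5 of the alternatives and not in the fit reported. FER1 was highest in replicate 1 of the truncated substituted line, at 154 CPM against 119 to 123 CPM. FER3 was highest in replicate 4 of the truncated active line, at 91.6 CPM against 52.9 to 57.7 CPM. bHLH38 was highest in dxo1-2 replicate 3, at 4.14 CPM against 0.666 to 1.00 CPM. IMA3 was highest in replicate 4 of the full-length substituted line, at 18.3 CPM against 7.93 to 9.53 CPM.

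The FER1 difference between substituted and active lines was not the same in the truncated pair as in the full-length pair, by 1.25 on the log2 scale (edgeR adjusted p = 0.014). Each construct is 1 line, so features of the lines and of the constructs cannot be told apart here.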

How the results depend on the processing

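Across the alternatives that kept all libraries of the genotypes compared, the calls of the IMA genes and FER3 between dxo1-2 and Col-0 stood, and the IMA calls of both truncated lines against Col-0 stood too. Few counts limit IMA1, IMA2 and the Ib bHLH genes in Col-0 and the full-length lines.

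The number of members called changed by more than 1.5 times as follows. Between the truncated substituted line and dxo1-2 (0 called), DESeq2, no filter and the length trend each gave 1. Between the full-length active line and Col-0 (0 called), DESeq2, the length trend and only the libraries compared each gave 1. With no filter, 7 were called in each full-length line against dxo1-2 (4 otherwise) and 8 between the active lines (5 otherwise), Ib bHLH genes included. The length trend gave 2 between the full-length substituted line and Col-0 and 3 between the full-length lines (1 otherwise in each).

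The number of all genes called moved from 108 to 175 (DESeq2) and 224 (length trend) for the truncated substituted line against dxo1-2, from 140 to 314, 342 and 1349 (only the libraries compared) for the full-length active line against Col-0, and from 196 to 351 and 395 for the interaction. The length trend gave 1137 in place of 728 for the full-length substituted line against Col-0. Only the libraries compared gave 177 in place of 412 for the truncated active line against dxo1-2, and 8 in place of 287 between the truncated lines. The cause was not tested.

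The replicate numbers are shared between genotypes, but same-numbered libraries deviated with correlations of -0.54 to 0.61, and in 0 of 13 comparisons was every pair over 0.1, so a number is not taken to pair libraries. With the replicate block, members called were 3 between the truncated substituted line and dxo1-2 (the IMA genes), and 2 in both comparisons of the full-length substituted line with Col-0 and with the full-length active line (FER4 added). It also added FER4, lower, between dxo1-2 and Col-0 (-0.63, adjusted p = 0.043), FER1 and FER4, both higher, in the full-length active line against dxo1-2 (0.48, adjusted p = 0.046, and 0.64, adjusted p = 0.026), and IMA1, lower, in the full-length substituted line against dxo1-2 (-1.67, adjusted p = 0.0089). The cause was not tested. All genes called were then 631 for the truncated active line against dxo1-2, 442 between the truncated lines and 219 for the full-length active line against Col-0.

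Leaving out 1 library at a time, genes called ranged from 70 to 127 (full-length active line against Col-0), 419 to 944 (full-length substituted line against Col-0), 183 to 1222 (truncated active line against dxo1-2), 51 to 116 (truncated substituted line against dxo1-2), 421 to 2585 (between the full-length lines), 101 to 846 (between the truncated lines) and 114 to 352 (interaction). Truncated active replicate 4 gave both 1222 and 846, and full-length substituted replicate 3 both 2585 and 352. Members called ranged from 0 to 1 for the truncated substituted line against dxo1-2, 1 to 2 for the full-length substituted line against Col-0, 1 to 3 between the full-length lines and 1 to 2 for the interaction.

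Changes of sign occurred in uncalled values near 0. FER4 had -0.0078 in the full-length active line against Col-0, with 0.014 under the block, 0.10 under the length trend and 0.0051 with only the libraries compared. Under the length trend FER4 had 0.039 in the full-length substituted line and 0.022 in the truncated active line against dxo1-2. Without single libraries the ranges were -0.058 to 0.16 for FER3, -0.10 to 0.19 for FER4 and -0.22 to 0.46 for IMA1 (full-length active line against Col-0), -0.49 to 0.11 for FER4 (full-length substituted line against dxo1-2), -0.14 to 0.056 for FER3 (truncated substituted line against dxo1-2) and -0.66 to 0.50 for the IMA2 interaction.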
